A study of Mus musculus with 4 samples.

Results

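Transcripts of 10 genes of glucose uptake and glycolysis were examined in whole cochleae of mouse embryos at embryonic day 15. They were chosen by their role, as a list of Ensembl gene IDs drawn up with earlier results of these data known. All 10 were found among the 23879 genes of the table. They are the glucose transporters Slc2a1 and Slc2a3, the hexokinases Hk1 and Hk2, the enzymes Aldoa, Tpi1, Pgk1 and Pkm of the later steps, the lactate dehydrogenase Ldha and the pyruvate dehydrogenase kinase Pdk1. The study set 2 arrays of N-myc ko cochleae against 2 arrays of wild-type cochleae, and embryos of both groups had the mixed background 129/Sv and CD-1. Both arrays of each group are labelled as biological replicates. The sources used here give neither the N-myc allele, nor any Cre driver, nor whether embryos were pooled, so p-values cover only the variation seen among these 4 samples.

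Glycolysis turns glucose into pyruvate and yields ATP without oxygen. Glucose enters the cell through transporters of the SLC2A family, is trapped as glucose 6-phosphate by hexokinase, is split by aldolase and ends as pyruvate, which lactate dehydrogenase can reduce to lactate. MYC proteins and the hypoxia-inducible factor HIF1 are known activators of many of these genes in growing cells, and N-myc is the MYC family member best known for its role in the growing embryonic nervous system and inner ear.

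Values were the authors' RMA expression values on the log2 scale, on which a difference of 1 is a doubling. The N-myc ko arrays had a narrower spread of values over all genes, with lower quartiles of 6.01 and 5.93 and upper quartiles of 8.94 and 9.004 on the N-myc ko arrays, against lower quartiles of 5.76 and 5.79 and upper quartiles of 9.14 and 9.18 on the wild-type arrays. Changes also moved with a gene's mean level: the median change was -0.20 for genes with a mean like that of Hk1 and -0.026 for genes with a mean like that of Ldha. Each member was therefore also set beside the genes of equal mean, those within 0.25 of its own. How probes were assigned to genes is not stated, so signal from processed pseudogenes, which many glycolytic genes have, could not be told apart from that of the gene. The Mycn transcript and markers of the cochlea were not analysed here, since apart from the 10 listed IDs no row could be given a gene name.

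Of the 10 members 4 were called lower in N-myc ko cochleae, where 19.8% of all genes were called lower, and no member was called higher. Slc2a1, Hk1, Aldoa and Pkm fell by 23.3%, 19.8%, 18.2% and 19.6% on the linear scale. A member counts as called where its limma p, adjusted over all genes by Benjamini-Hochberg, was no higher than 0.14, the false discovery rate limit that the study's design names. Over all genes 34.7% were called, 14.9% higher and 19.8% lower. The 4 members called lower are 40% of the 10. Genes of equal mean were called lower in 15.8% to 37.8% of cases, with an average of 23.9% over the 10 members. At a limit of 0.05 limma called 0 members, where 8.20% of all genes were called lower. An unadjusted limma p under 0.05 was seen for 5 members, all lower, and for 35.1% of all genes, counted in either direction. After quantile normalisation 1 member was called, lower, where 10.1% of all genes were called lower. After cyclic loess 1 member was called, lower, where 9.70% of all genes were called lower. The shares in the rest of this paragraph count genes called in either direction, while every member called was lower. Without N-myc ko replicate 1 or N-myc ko replicate 2, 1 member was called, against 13.2% and 27.5% of all genes. Without wild-type replicate 1 or wild-type replicate 2, 2 members were called, against 21.6% and 20.6%. With the variance allowed to follow the mean 6 were called (34.9% of all genes), with the replicate number as a block 5 (37.0%), and 5 when only the 11939 genes brighter than the median were tested (39.8% of those).

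The log2 changes of all 10 members were negative, between -0.38 and -0.0039 with a median of -0.23. The median was -0.15 after quantile normalisation, -0.13 after cyclic loess and -0.15 without wild-type replicate 2. Over all genes the median change was -0.03, and 54.4% of the changes were negative. All 10 members were brighter than the median gene. Their genes of equal mean had a negative median change for every member, between -0.20 (Hk1) and -0.026 (Ldha). The 2 N-myc ko arrays lay below both wild-type arrays for 6 members (60%), which are Slc2a1, Hk1, Aldoa, Tpi1, Pkm and Ldha, and such separation with N-myc ko lower was seen for 36.2% of all genes. The share among genes of equal mean was not counted. For Slc2a3, Hk2, Pgk1 and Pdk1 the groups overlapped. In RNA from a whole tissue, fewer cells of a type and less RNA per cell cannot be told apart.

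**Figure D1:**
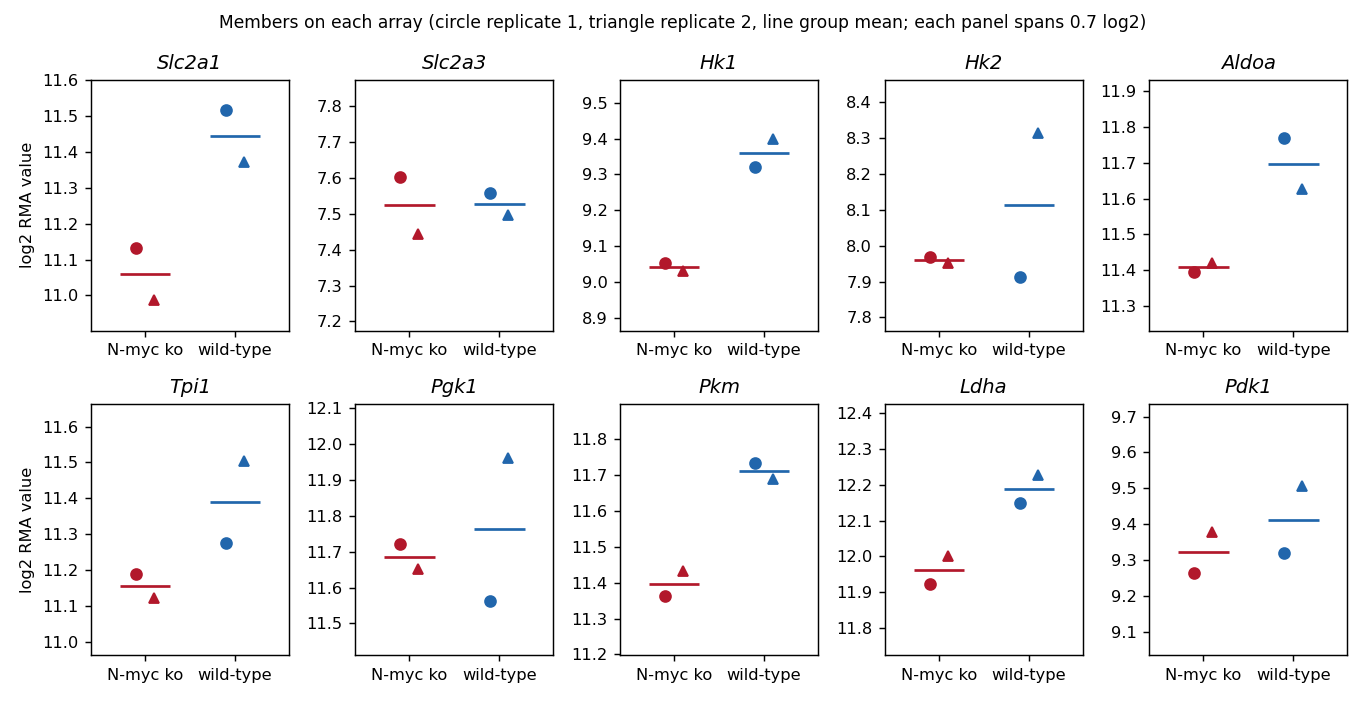
RMA log2 value (vertical axis) of each member on the N-myc ko and wild-type arrays, with circles for replicate 1, triangles for replicate 2 and lines for group means; every panel spans the same width on the log2 scale. The groups separate for Slc2a1, Hk1, Aldoa, Tpi1, Pkm and Ldha, and wild-type replicates 1 and 2 lie far apart for Hk2 and Pgk1.

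Promoter sequences are shown for 3 members that were called lower, with 3 that were not called beside them. The sequences are given because MYC and HIF1 bind related letters, and a shared cause was not tested. The canonical E-box of MYC and its partner MAX is CACGTG, and it contains ACGTG, a form of the HIF1 core. Both were searched on both strands in windows from 250 bases before to 50 bases after RefSeq start sites (build GRCm38.p6). By symbol, 9 of the 10 members matched 15 windows. CACGTG was found in 1 of the 15 windows, 1 of the 2 windows of Ldha, and in 7.15% of all 32851 windows. ACGTG was found in 8 of the 15 windows and in 19.6% of all windows, or in 7 of the 9 members and 21.8% of all 27025 genes. The 8 windows count the match of Aldoa in both of its overlapping windows. Shares over all genes were not matched to the members for windows per gene, brightness or base composition, so a difference from them was not tested. The 250 bases before the start site follow, 5′ to 3′, with ACGTG or its complement CACGT in capitals, so that the E-boxes of Ldha show as 6 capitals.
Slc2a1, chr4:119108495-119108744, plus strand: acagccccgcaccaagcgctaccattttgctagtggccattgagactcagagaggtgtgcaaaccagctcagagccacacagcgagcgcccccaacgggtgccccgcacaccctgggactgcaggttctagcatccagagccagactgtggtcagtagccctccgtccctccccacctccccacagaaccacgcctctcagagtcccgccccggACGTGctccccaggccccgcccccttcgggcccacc
Aldoa, chr7:126799255-126799504, minus strand: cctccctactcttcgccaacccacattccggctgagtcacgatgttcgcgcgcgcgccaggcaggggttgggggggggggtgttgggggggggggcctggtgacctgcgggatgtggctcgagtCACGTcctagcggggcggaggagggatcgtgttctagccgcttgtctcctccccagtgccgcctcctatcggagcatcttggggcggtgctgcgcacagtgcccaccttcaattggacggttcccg
Pkm, chr9:59656977-59657226, plus strand: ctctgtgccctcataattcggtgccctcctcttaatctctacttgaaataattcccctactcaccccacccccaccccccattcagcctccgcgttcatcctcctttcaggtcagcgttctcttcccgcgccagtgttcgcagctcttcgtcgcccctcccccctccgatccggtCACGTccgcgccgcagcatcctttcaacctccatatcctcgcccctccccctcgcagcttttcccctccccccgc
Ldha, chr7:46845554-46845803, plus strand: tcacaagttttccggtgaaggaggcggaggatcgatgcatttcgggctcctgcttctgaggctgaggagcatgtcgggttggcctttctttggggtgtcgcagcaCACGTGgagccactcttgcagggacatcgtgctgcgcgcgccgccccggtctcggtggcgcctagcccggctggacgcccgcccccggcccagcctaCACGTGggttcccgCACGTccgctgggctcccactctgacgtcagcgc
Hk2, chr6:82774455-82774704, minus strand: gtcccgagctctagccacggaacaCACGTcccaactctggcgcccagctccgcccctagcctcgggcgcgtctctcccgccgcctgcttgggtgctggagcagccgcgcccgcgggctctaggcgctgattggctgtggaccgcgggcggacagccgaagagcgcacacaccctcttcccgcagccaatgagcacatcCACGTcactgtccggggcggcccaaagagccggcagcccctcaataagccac
Pgk1, chrX:106186850-106187099, plus strand: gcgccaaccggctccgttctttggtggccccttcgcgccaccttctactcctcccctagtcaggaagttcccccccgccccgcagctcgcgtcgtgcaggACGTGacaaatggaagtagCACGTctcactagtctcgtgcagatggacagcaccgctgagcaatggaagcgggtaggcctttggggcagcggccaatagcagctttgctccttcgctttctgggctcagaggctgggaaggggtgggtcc
The match in Slc2a1 begins at position -36, counted from the start site, and the E-boxes of Ldha begin at positions -145 and -48. For Aldoa, Pkm and Ldha, which have 3, 2 and 2 windows, the window shown is one that holds the letters. Each of these 3 genes also has 1 window without a match, which is not shown. Matches stand in the promoters of called members and of the uncalled Hk2 and Pgk1 alike. Hk1 holds them only after a start site, and the windows of Tpi1 and Pdk1 hold none. A match describes these letters only and shows no binding.

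On the deposited values of all 4 arrays, Slc2a1 had the widest change of the 10 members and Slc2a3 the narrowest. Without N-myc ko replicate 2 or wild-type replicate 1 another member was widest, and after either normalisation Hk2 was narrowest. Slc2a1 (ENSMUSG00000028645) encodes GLUT1, the basal glucose transporter of most embryonic cells and of the blood vessels that supply neural tissue. Its log2 value was 11.13 and 10.99 in N-myc ko cochleae, against 11.52 and 11.37 in wild-type cochleae. The highest N-myc ko array lay 0.24 below the lowest wild-type array, a gap wider than the distance between the arrays of either group. In limma its log2 change was -0.38 (SE 0.11, limma adjusted p = 0.0576), 0.767-fold, with group means of 11.06 ± 0.10 and 11.44 ± 0.10 (SD, n = 2 each, N-myc ko and wild-type). Among the 445 genes of equal mean, the median change was -0.07, and 93.9% had a higher change. After quantile normalisation its change was -0.31 (adjusted p = 0.141) and after cyclic loess -0.30 (adjusted p = 0.154), so its call was lost by a small margin. Without N-myc ko replicate 2 (adjusted p = 0.175) and without wild-type replicate 1 (adjusted p = 0.192) it was lost as well, in fits with 1 array fewer.

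Slc2a3 (ENSMUSG00000003153) encodes GLUT3, the high-affinity transporter typical of neurons. Its log2 value was 7.60 and 7.45 in N-myc ko cochleae, against 7.56 and 7.50 in wild-type cochleae. The wild-type arrays lay between the N-myc ko arrays. The groups differed by -0.0039 on the log2 scale, with a 95% interval from -0.25 to 0.24 in limma (adjusted p = 0.982). A change of up to about that size in either direction is therefore not excluded by these arrays.

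The transporters were also set against each other within each array. The log2 value of Slc2a3 minus that of Slc2a1 was -3.53 and -3.54 on the N-myc ko arrays, against -3.96 and -3.87 on the wild-type arrays. The groups did not overlap, and their means differed by 0.38 (SE 0.04, 95% interval from 0.20 to 0.56). This SE rests on the 4 arrays' differences alone, with 2 residual degrees of freedom, and is not a limma SE. It is therefore not to be set beside the SE of single genes. With 2 arrays a group the exact two-sided permutation test gives p = 0.33, the smallest it can reach. The difference ranged from 0.34 to 0.42 over both normalisations and the fits with 1 array left out. Since probes differ in brightness, the difference on an array is no measure of which transporter has more transcripts.

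**Figure D2:**
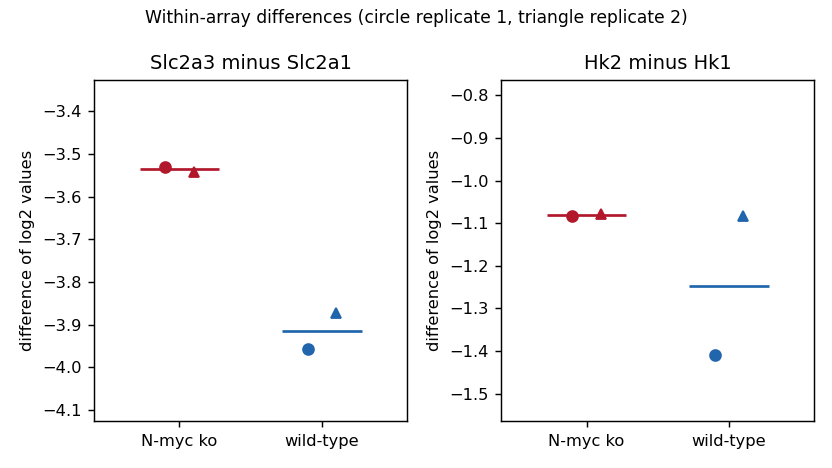
Log2 value of Slc2a3 minus Slc2a1 (left) and of Hk2 minus Hk1 (right) on each array, with circles for replicate 1, triangles for replicate 2 and lines for group means. The N-myc ko arrays lie at -3.53 and -3.54 for the transporters, above the wild-type arrays at -3.96 and -3.87, while for the hexokinases wild-type replicate 1 stands apart at -1.41.

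Hexokinase commits glucose to the cell. Hk1 (ENSMUSG00000037012), the constitutive form bound to mitochondria in neural tissue, had log2 values of 9.05 and 9.03 in N-myc ko cochleae, against 9.32 and 9.40 in wild-type cochleae. The arrays of each group lay close together and the groups were 0.27 apart. Its log2 change was -0.32 (SE 0.09, limma adjusted p = 0.063), 0.802-fold. The 1894 genes of equal mean had a median change of -0.20, and 37.8% of them were called lower. The change of Hk1 was lower than that of 71.5% of them. After quantile normalisation its change was -0.13 (adjusted p = 0.399) and after cyclic loess -0.12 (adjusted p = 0.449). Its call was kept without wild-type replicate 1 (adjusted p = 0.131) and lost without wild-type replicate 2, N-myc ko replicate 1 or N-myc ko replicate 2, with adjusted p of 0.204, 0.19 and 0.161.

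Hk2 (ENSMUSG00000000628), the inducible hexokinase of growing tissue and tumours and a textbook MYC and HIF1 target, had log2 values of 7.97 and 7.95 in N-myc ko cochleae, against 7.91 and 8.31 in wild-type cochleae. Both N-myc ko arrays lay between the wild-type arrays, close to wild-type replicate 1. Its log2 change was -0.15, with a 95% interval from -0.50 to 0.19 in limma (adjusted p = 0.48). It was -0.35 without wild-type replicate 1 (adjusted p = 0.133, called) and 0.048 without wild-type replicate 2, so the value rests on which wild-type array is used. The log2 value of Hk2 minus that of Hk1 was -1.08 on both N-myc ko arrays, against -1.41 and -1.08 on the wild-type arrays. The difference between the groups was 0.17 (SE 0.16, found as for the transporters), about as large as its error. It was 0.0032 without wild-type replicate 1 and 0.33 without wild-type replicate 2. The exact two-sided permutation test gave p = 0.33, again the smallest it can reach, so this p is no evidence either way.

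The middle steps held 1 member that fell, Aldoa, and the uncalled Tpi1 and Pgk1. Aldoa (ENSMUSG00000030695), the aldolase that splits fructose 1,6-bisphosphate, had log2 values of 11.40 and 11.42 in N-myc ko cochleae, against 11.77 and 11.63 in wild-type cochleae. Both N-myc ko arrays lay below both wild-type arrays, with a gap of 0.21. In limma the change was -0.29 (SE 0.10, limma adjusted p = 0.0892), 0.818-fold, and 86.8% of the 311 genes of equal mean had a higher change, with a median of -0.06. Its change was -0.22 after quantile normalisation and after cyclic loess (adjusted p = 0.194 and 0.191) and -0.23 after centring each array on its median (adjusted p = 0.157), and was not called there. It was called without wild-type replicate 2 (-0.36, adjusted p = 0.133) and not without wild-type replicate 1, N-myc ko replicate 1 or N-myc ko replicate 2 (adjusted p = 0.292, 0.273 and 0.183).

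Tpi1 (ENSMUSG00000023456) interconverts the triose phosphates that aldolase makes. Its log2 value was 11.19 and 11.12 in N-myc ko cochleae, against 11.28 and 11.50 in wild-type cochleae. The groups did not overlap, but wild-type replicate 1 lay only 0.086 above the nearer N-myc ko array. Its change of -0.24 on the log2 scale had a 95% interval from -0.50 to 0.033 and was not called (limma adjusted p = 0.185). It was -0.35 without wild-type replicate 1 (adjusted p = 0.141) and -0.12 without wild-type replicate 2 (adjusted p = 0.569).

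Pgk1 (ENSMUSG00000062070) makes the first ATP of the pathway. The arrays gave log2 values of 11.72 and 11.65 in N-myc ko cochleae, against 11.56 and 11.96 in wild-type cochleae, and both N-myc ko arrays lay between the wild-type arrays. The log2 change was -0.075, with a 95% interval from -0.42 to 0.27 (limma adjusted p = 0.739). It was -0.27 without wild-type replicate 1 and 0.12 without wild-type replicate 2, neither of them called (adjusted p = 0.212 and 0.562).

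At the end of the pathway Pkm fell and Ldha was not called. Pkm (ENSMUSG00000032294) encodes the pyruvate kinases M1 and M2, splice forms that the single row does not tell apart. Its log2 value was 11.36 and 11.43 in N-myc ko cochleae, against 11.73 and 11.69 in wild-type cochleae. The gap between the groups, 0.26, was wider than the distance between the arrays of either group. The change was -0.31 on the log2 scale (SE 0.09, limma adjusted p = 0.0648), 0.804-fold, lower than that of 90% of the 309 genes of equal mean. Pkm was the member called after both normalisations, with changes of -0.25 and -0.25 and adjusted p of 0.132 after quantile normalisation and 0.13 after cyclic loess. With 1 array left out it was called without N-myc ko replicate 2 (adjusted p = 0.123) and not without N-myc ko replicate 1, wild-type replicate 1 or wild-type replicate 2 (adjusted p = 0.242, 0.19 and 0.153).

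Ldha (ENSMUSG00000063229) reduces pyruvate to lactate and restores the NAD+ that glycolysis needs. On the log2 scale it stood at 11.92 and 12.00 in N-myc ko cochleae, against 12.15 and 12.23 in wild-type cochleae. The groups did not overlap and the arrays of each group lay about 0.08 apart. Its log2 change was -0.23 (SE 0.09), 0.855-fold, with a limma adjusted p of 0.142, just outside the limit of 0.14. It was called where the variance was allowed to follow the mean (adjusted p = 0.0703), where the genes above the median brightness were tested alone (adjusted p = 0.136) and with the replicate number as a block (adjusted p = 0.137). It was not called after quantile normalisation, cyclic loess or centring (adjusted p = 0.243, 0.211 and 0.243), nor with any 1 array left out, where the adjusted p lay between 0.211 (N-myc ko replicate 2 left out) and 0.426 (N-myc ko replicate 1 left out). Its change was lower than that of 81.3% of 155 genes of equal mean. Of its 2 promoter windows, the one shown holds 2 E-boxes and the other holds no match.

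Pdk1 (ENSMUSG00000006494) encodes a kinase that turns off pyruvate dehydrogenase and so limits the oxidation of pyruvate in the mitochondria. Its log2 value was 9.26 and 9.38 in N-myc ko cochleae, against 9.32 and 9.51 in wild-type cochleae, and the groups overlapped. The log2 change was -0.091, with a 95% interval from -0.35 to 0.17 (limma adjusted p = 0.578). Genes of equal mean had a median change of -0.20, and the change of Pdk1 lay above that of 69.3% of them, and its change was 0.096 after quantile normalisation and 0.10 after cyclic loess.

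Set against genes of equal mean, the median over the members of the difference was -0.14. The change of 7 members lay below the median of such genes, and that of Slc2a3, Hk2 and Pdk1 above it. Pgk1, counted among the 7, lay almost on that median, with a difference of -0.00071. Slc2a1 had the widest difference, -0.31, followed by Pkm at -0.25, Aldoa at -0.23 and Ldha at -0.20. Of the 10 members 0 lay outside the range that holds the central 90% of the genes of equal mean. The median difference was -0.079 without N-myc ko replicate 2 and -0.078 without wild-type replicate 2. It is a description with no test.

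**Figure D3:**
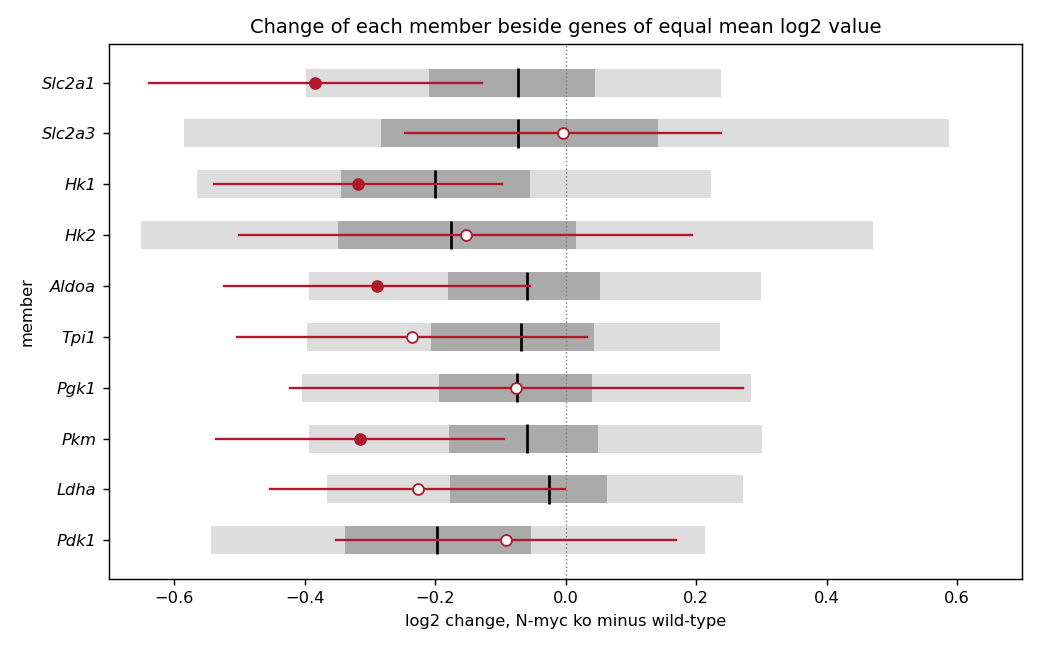
Log2 change, N-myc ko minus wild-type (horizontal axis), of each member, with red points for the change (filled where called), red lines for the limma 95% interval, and grey bars for the genes of equal mean: light from the 5th to the 95th percentile, dark from the 25th to the 75th, and black ticks at the median. Slc2a1, Pkm, Aldoa and Ldha lie well to the left of their ticks, and Pgk1 and Hk2 lie on or near theirs.

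Members differed in how well the wild-type replicates agreed. The gap between wild-type replicates was 0.40 for Hk2 and 0.40 for Pgk1, 0.23 for Tpi1 and 0.19 for Pdk1, with replicate 2 the higher in each. Of the genes of equal mean, 1.52% had a wider gap than Pgk1 and 7.49% a wider gap than Hk2. Slc2a1 and Aldoa had gaps of 0.15 and 0.14 with wild-type replicate 1 the higher. Between the N-myc ko arrays no member differed by more than 0.16, the gap of Slc2a3.

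**Figure D4:**
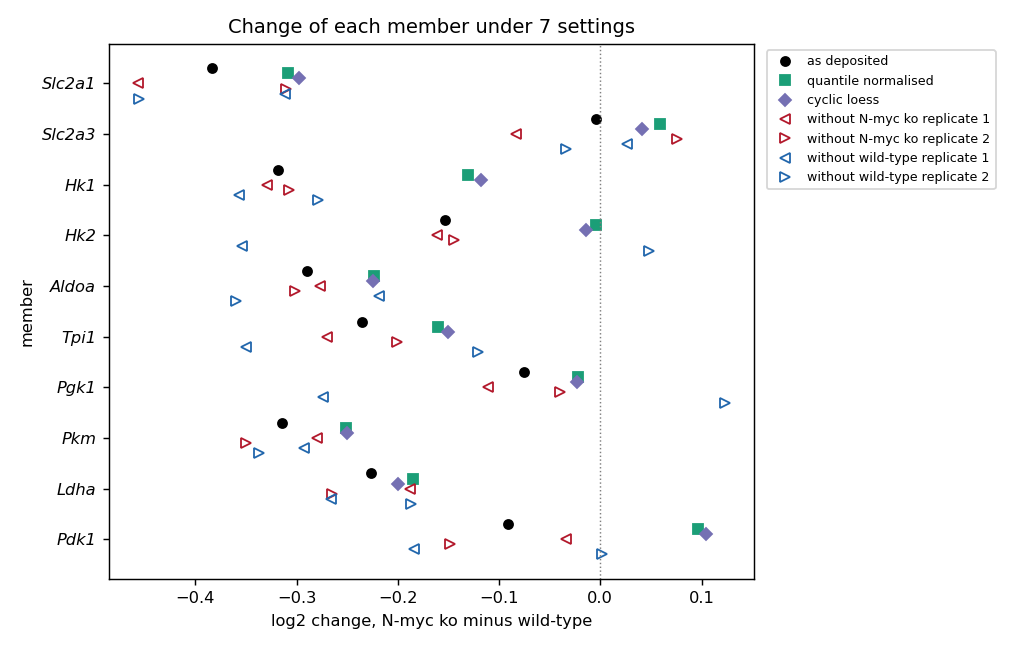
Log2 change, N-myc ko minus wild-type (horizontal axis), of each member as deposited, after quantile normalisation, after cyclic loess and with each array left out in turn. Slc2a1, Hk1, Aldoa, Tpi1, Pkm and Ldha stay below 0 in all 7 settings drawn, and Slc2a3, Hk2, Pgk1 and Pdk1 cross 0 in at least 1 of them.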

How the data were processed

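Total RNA of 4 whole cochleae samples was hybridised to 1-colour arrays after WT Expression Kit amplification, per the labels' protocols. The authors deposited log2 expression values made with RMA (affy), per the submitters' processing notes, with 1 row per Ensembl gene ID. The sources used here do not state the array design, versions or probe assignment, so cross-hybridisation with pseudogenes could not be assessed. The values run from 3.63 to 14.3 and have no read depth, and the number of arrays limits precision.

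All 23879 rows were fitted with limma 3.58.1 in R 4.3.3 (lmFit, eBayes, two-sided, N-myc ko minus wild-type, 2 residual and 4.33 prior degrees of freedom), called at a Benjamini-Hochberg adjusted p of at most 0.14. The fit was tested on simulated data in which few genes changed. Many more genes were called in the real data, so that test does not cover the error rate here. The authors' SAM test, which rests on regrouping the arrays, was not rebuilt. Genes of equal mean were those within 0.25 of a member's mean log2 value. All members were named by rule, their symbols coming with the list of IDs. The RefSeq table of 49997 genes matched 0 row IDs, so the planned lists of other glycolytic, transporter, lactate and HIF genes and cell type markers were not analysed here. The members and lists were chosen with earlier results of these data known. Alternatives were a stricter limit, quantile, cyclic loess and median scaling, variance trends, bright genes alone, a replicate block, other windows of equal mean and leaving out each array.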

Additional observations from a re-analysis of the deposited data

How the results depend on the processing

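The 8280 calls over all genes became 4816 after quantile normalisation, 4962 after cyclic loess, 3572 at the stricter limit of 0.05 and 3151 to 6559 without 1 array. A test of only the 11939 genes brighter than the median called 4757 of them (39.8%, against 34.7%), 5 of them members. The 4 members called, all lower, became 1 after quantile normalisation, 1 after cyclic loess, 0 at the stricter limit (5 had an unadjusted limma p under 0.05, as had 35.1% of all genes) and 1 to 2 without 1 array. The share of 35.1% counts genes of either direction, while the 5 members were all lower. The count of members called higher was 0 under each setting. The members' median of -0.23 was -0.15 after quantile normalisation, -0.13 after cyclic loess, -0.18 after centring and -0.28 to -0.15 without 1 array. The median difference from genes of equal mean, -0.14, was -0.19 to -0.078 without 1 array. It moved by less than the replicate spread under the other settings. Centring leaves this difference unchanged by construction, and the other windows use the same fit, so these settings are no independent check. Of the 6 uncalled members, Tpi1 and Ldha stayed negative and the other 4 changed sign. Slc2a3 was at 0.059 after quantile normalisation, 0.041 after cyclic loess, 0.051 after centring and -0.083 to 0.075 without 1 array. Pdk1 was at 0.096 and 0.10 after the normalisations and -0.18 to 0.0019 without 1 array. Hk2 ranged from -0.35 to 0.048 and Pgk1 from -0.27 to 0.12 without 1 array. The cause was not tested, though some settings hold fewer genes or arrays. No label says what the replicate numbers share, and deviations of same-numbered arrays correlate at 0.12. With the replicate block 8835 genes were called, 5 of them members, the added one being Ldha. The variance trend called 8329 genes, 6 of them members, with Tpi1 added too (adjusted p = 0.132). No background level is given, so how far above it Slc2a3 (mean log2 value 7.53) and Hk2 (8.04) lay is not known.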
